A study of Homo sapiens with 6 samples.

Results

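The genes described here encode the hypoxia-inducible factors (HIFs) and the enzymes that tie them to oxygen. They are the HIF alpha subunits HIF1A, EPAS1 and HIF3A, their partner ARNT, the prolyl hydroxylases EGLN1, EGLN2 and EGLN3, the asparaginyl hydroxylase HIF1AN and the ubiquitin ligase subunit VHL. The members were the 9 genes of this list, taken by symbol from the platform annotation. Of these, 8 had a probe set, out of 23752 probe sets with a single gene symbol, and EGLN2 was not analysed here. The list was chosen by function, with the differences between the groups already known, and EGLN3 was selected on its TUSC3 minus EV difference. The EGLN3 difference is therefore given as a description and supports nothing further.

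In cells with enough oxygen, prolyl hydroxylases modify the HIF alpha subunits, VHL recognises the modified proteins, and they are degraded. HIF1AN modifies an asparagine that otherwise contacts the coactivators CREBBP and EP300. When oxygen is low both reactions slow, the alpha subunits pair with ARNT, and the pair binds hypoxia response elements in target genes, among which are EGLN1 and EGLN3 themselves. This control acts mainly on HIF protein, which expression arrays do not measure.

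SW480, an established cell line from a human colorectal adenocarcinoma, was transiently transfected by liposomes with the pTarget plasmid. In the TUSC3 group (3 arrays) the plasmid carried TUSC3, which encodes a subunit of the endoplasmic reticulum oligosaccharyltransferase, and in the control group (EV, empty vector, 3 arrays) it carried no insert. Both groups were grown in DMEM with FCS, glutamine and antibiotics, and both went through transfection. The labels do not state the share of cells that took up plasmid, the time to harvest or the oxygen level. The labels number the replicates 1 to 3 in each group and do not say whether they were separate cultures, so the p-values reflect variation among these 6 arrays, part or all of which may be technical.

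All levels below are log2 RMA levels, 1 value per gene and array, and all differences are TUSC3 minus EV on that log2 scale. The arrays had the same median, 5.50, and their number limits the precision. TUSC3 itself read 13.13, 13.11 and 13.09 in the TUSC3 arrays and 4.57, 4.33 and 4.63 in the EV arrays, as the labels say. Epithelial markers averaged 8.957 to 9.0003 in the EV arrays and 8.88 to 8.97 in the TUSC3 arrays over 10 genes, with KRT19, a keratin of simple epithelia, at 12.49 in EV. Fibroblast (8 genes), endothelial (8) and leukocyte markers (7) averaged 4.15 to 4.34, 4.54 to 4.77 and 3.78 to 3.97 over the 6 arrays, and their highest members were COL1A1 (6.51), EGFL7 (6.83) and LYZ (7.24). No marker passed the threshold used below, and the part of other cell types in the results was not tested.

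Of the 8 measured genes, 7 were lower in the TUSC3 group on average and 1, VHL, was higher, where 49.6% of all genes were lower. EV replicate 1 by itself lay below the EV mean for 7 of the 8, and TUSC3 replicates 1, 2 and 3 for 6, 7 and 6. An adjusted p of 0.05 (limma over all genes, Benjamini-Hochberg adjustment) was passed by 0 of 8. Over all 23752 genes 1 passed, TUSC3, which is 0.00421%. At an unadjusted p of 0.05, 2 of the 8 were below the threshold, both lower, EPAS1 and EGLN3, against 6.71% of all genes in either direction and 3.3% on the lower side. EPAS1 was no longer below it in 5 of 12 alternatives: with the replicate block (unadjusted p = 0.0590), when TUSC3 replicate 2 (0.0722) or 3 (0.0541) was left out, and when EV replicate 2 (0.0717) or 3 (0.0578) was left out. The count was then 1. It was 3 without TUSC3 replicate 1, where HIF3A was added, and with the trended and robust variance prior, where EGLN1 was added. The 3 TUSC3 arrays lay below the 3 EV arrays without overlap for EGLN3, EPAS1 and EGLN1, 3 of 8, against 6.08% of all genes. Because the list was chosen with this comparison in view, nothing is read from these shares. The arrays measured RNA from transfected and untransfected cells together, so a change in few cells and a smaller change in many cannot be told apart.

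The promoters of those 3 genes whose arrays did not overlap are printed here (RefSeq, GRCh38.p14), each with 250 bases before and 50 after the annotated start, 5′ to 3′ along the gene. Capitals mark the core letters of the hypoxia response element, searched as ACGTG and GCGTG on both strands. EGLN3 is at chr14:33951025-33951324 on the minus strand, EGLN1 at chr1:231422238-231422537 on the minus strand, and EPAS1 at chr2:46297157-46297456 on the plus strand.
EGLN3: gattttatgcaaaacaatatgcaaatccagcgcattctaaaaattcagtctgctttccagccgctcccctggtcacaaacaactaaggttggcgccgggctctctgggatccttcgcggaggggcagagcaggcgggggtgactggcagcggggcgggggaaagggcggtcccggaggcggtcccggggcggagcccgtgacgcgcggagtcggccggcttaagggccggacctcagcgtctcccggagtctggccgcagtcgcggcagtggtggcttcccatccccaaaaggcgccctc
EGLN1: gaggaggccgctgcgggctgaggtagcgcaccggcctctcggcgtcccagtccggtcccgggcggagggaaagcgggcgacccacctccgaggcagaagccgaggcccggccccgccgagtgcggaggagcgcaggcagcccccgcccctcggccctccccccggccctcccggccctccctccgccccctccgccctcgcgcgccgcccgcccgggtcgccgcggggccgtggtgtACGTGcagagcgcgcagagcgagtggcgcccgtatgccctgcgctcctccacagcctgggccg
EPAS1: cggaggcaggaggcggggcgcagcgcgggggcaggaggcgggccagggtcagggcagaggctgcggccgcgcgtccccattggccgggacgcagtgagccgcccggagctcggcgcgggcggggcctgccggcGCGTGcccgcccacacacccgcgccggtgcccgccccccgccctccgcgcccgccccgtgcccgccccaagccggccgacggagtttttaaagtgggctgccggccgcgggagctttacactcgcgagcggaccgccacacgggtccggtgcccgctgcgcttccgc
The EGLN1 window held 1 core, ACGTG, from position -13 to -9 of the start, and the EPAS1 window 1 core, GCGTG, from -117 to -113. The EGLN3 window held 0. The HIF1A promoter held 1 core in 1 of its start sites (GCGTG from -204 to -200), HIF3A had 3 cores in 1 of its start sites, and ARNT and HIF1AN had 0. EGLN2 had ACGTG once on each strand in 1 of its start sites, at overlapping positions from -49 to -44. A core of either kind was present in 48.4% of 35116 promoters of this length. Counted by gene, with several start sites for some, it was present in at least 1 promoter of 52.4% of all genes, of 62.5% of the 8 members with a promoter and of 35 of 37 genes of the HIF target list described below. Those 8 members are not the 8 measured genes: they include EGLN2 and leave out VHL, which had no promoter entry. These letters alone do not mark a bound site, and their absence from a window says nothing of elements elsewhere in a gene.

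**Figure D1:**
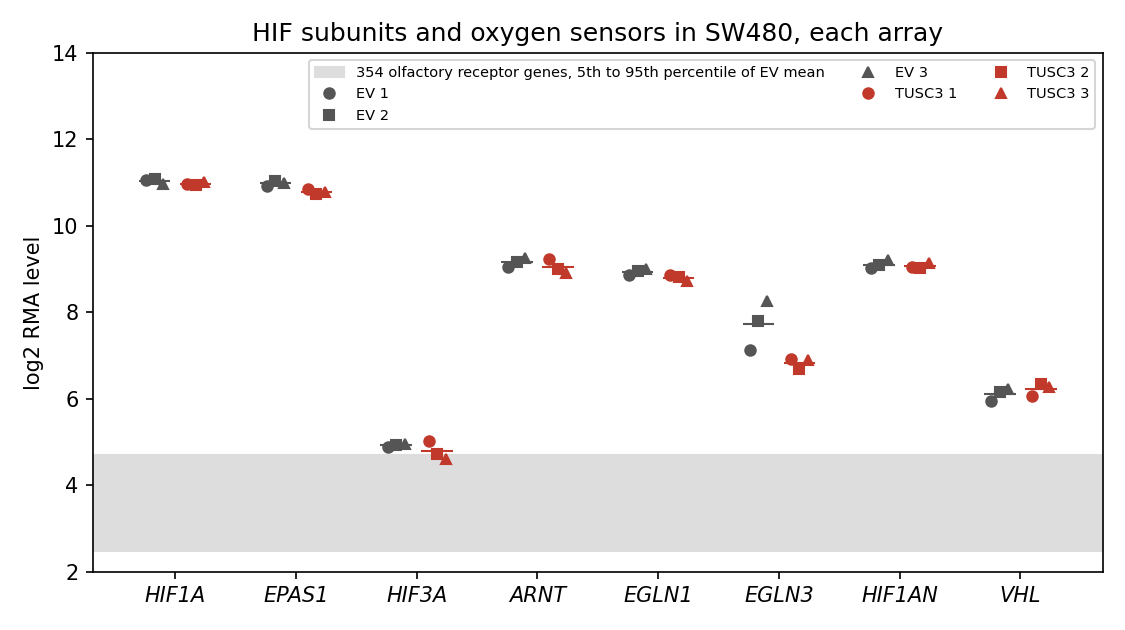
Log2 RMA level (vertical axis) of the 8 measured genes in each of 3 EV (grey) and 3 TUSC3 (red) arrays, with the symbol giving the replicate number and short lines the group means. The grey band spans the 5th to the 95th percentile of 354 olfactory receptor genes, and EGLN3 is the gene whose EV arrays spread most, from 7.13 to 8.25.

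The prolyl hydroxylases differed from each other in how much they varied. EGLN3 encodes the prolyl hydroxylase whose message is known to respond most strongly to hypoxia in many cell lines. It read 7.13, 7.79 and 8.25 in EV replicates 1, 2 and 3 and 6.91, 6.68 and 6.89 in TUSC3 replicates 1, 2 and 3. The TUSC3 arrays were close together and all lay under the lowest EV array, by 0.22 at the nearest point, while the EV arrays were spread over 1.12, which is 2.17-fold in signal. The group means were 7.73 ± 0.56 (SD, n = 3) in EV and 6.83 ± 0.13 (SD, n = 3) in TUSC3.

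The EGLN3 difference was -0.90, with a 95% interval of -1.51 to -0.29 from the moderated fit. That fit pulls the residual SD of each gene towards a common value, here 0.11, and the residual SD of EGLN3 was 0.41. An interval from the EGLN3 arrays alone would be wider and was not computed. The residual SD of EGLN3 exceeded that of 98.5% of all genes, and the exclusion of 0 by the printed interval depends on this pull. As a ratio of array signals the EV group was 1.86-fold above the TUSC3 group, with an interval of 1.22- to 2.84-fold. Of all genes, 5 had a lower difference and 9 a larger one in either direction. Without EV replicate 3, the highest array, the difference was -0.63, and without EV replicate 1, the lowest, it was -1.19. As the groups did not overlap, no leave-out could change the direction, and the size moved with which EV arrays were used.

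The spread of EGLN3 in the control cells was itself large. Its SD over the EV arrays exceeded that of 99.5% of all genes and of 100% of the 500 genes nearest to it in mean level. Its SD over the TUSC3 arrays exceeded 59.6% of all genes and 68.6% of those 500. Its residual SD within groups was 0.41, where the median of the 500 nearest genes was 0.11.

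EGLN1 encodes the main oxygen sensor among the prolyl hydroxylases, the one that sets HIF1A levels in well-oxygenated cells. It read 8.871, 8.965 and 8.998 in the EV arrays and 8.865, 8.814 and 8.717 in the TUSC3 arrays. The groups did not overlap, but EV replicate 1 and TUSC3 replicate 1 were 0.0059 apart. The difference was -0.15 with an interval of -0.32 to 0.03 (limma, adjusted p = 0.766), and the residual SD was 0.071, close to the median of 0.072 for the 500 genes nearest in level.

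Since probe sets respond differently, EGLN3 was set against the other members as a log2 ratio within each array, and the change of that ratio was compared between groups. The ratio of EGLN3 to EGLN1 was -1.74, -1.17 and -0.74 in the EV arrays and -1.95, -2.13 and -1.83 in the TUSC3 arrays. The TUSC3 arrays were lower in each case, the change between group means was -0.75, and the closest arrays of the groups were 0.088 apart. Without 1 array the change ran from -1.01 to -0.52. These ratios show unequal change of the probe sets and were not tested, because EGLN3 had been chosen for its difference.

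The change of the ratio was -0.83 against HIF1A (EV -3.31 ± 0.60, TUSC3 -4.14 ± 0.11, SD, n = 3) and -0.70 against EPAS1 (EV -3.26 ± 0.53, TUSC3 -3.96 ± 0.090, SD, n = 3). For both, the groups did not overlap, with gaps of 0.12 and 0.098. Against HIF3A it was -0.76 and the groups overlapped, as TUSC3 replicate 3 (2.28) exceeded EV replicate 1 (2.24). The comparison with EGLN2 could not be made here. EGLN3 varied far more within groups than HIF1A and EPAS1 (residual SDs of 0.41, 0.044 and 0.052). These ratios thus largely repeat the EGLN3 values and are no separate results.

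**Figure D2:**
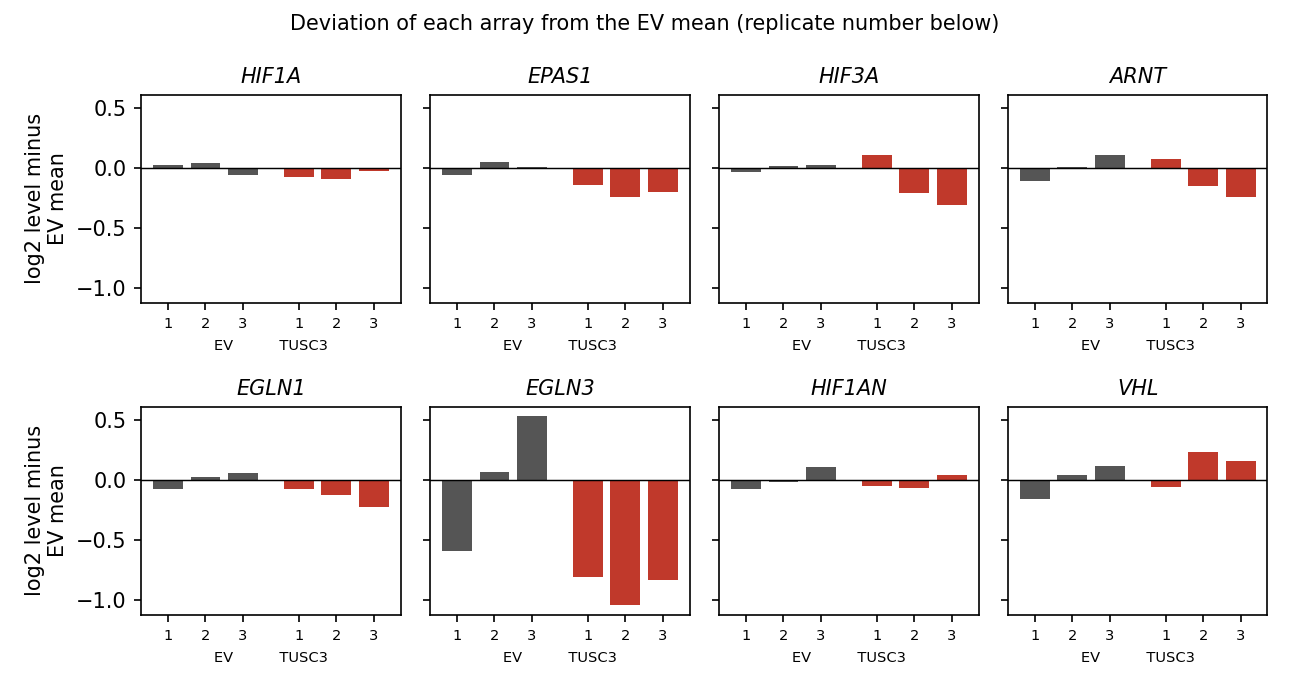
Each array's log2 RMA level minus the mean of the 3 EV arrays (vertical axis, same scale in each panel) for the 8 genes, with EV arrays in grey, TUSC3 arrays in red and the replicate number below each bar. EGLN3 is the gene with wide deviations, -0.59 to 0.53 within EV and -1.04 to -0.81 within TUSC3, and the other genes stay within 0.31 of their EV mean.

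Among the HIF alpha subunits, HIF1A and EPAS1 had residual SDs within groups of 0.044 and 0.052, and HIF3A one of 0.157. HIF1A, the alpha subunit found in most tissues, read 11.06, 11.08 and 10.98 in the EV arrays and 10.96, 10.95 and 11.01 in the TUSC3 arrays. The groups overlapped through EV replicate 3 and TUSC3 replicate 3. The difference was -0.06 with an interval of -0.22 to 0.09 (limma, adjusted p = 0.880), so a change of more than 1.16-fold in either direction lay outside the interval. HIF1A-AS2, an antisense transcript of the locus looked up after the members' values were seen, read 5.53 in EV and differed by -0.025. The labels do not state which strand the probes read, so signal from the 2 strands cannot be told apart.

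EPAS1 encodes HIF-2 alpha, the alpha subunit first described in endothelium and active in several epithelial tumours. It read 10.93, 11.04 and 11.00 in the EV arrays and 10.85, 10.75 and 10.79 in the TUSC3 arrays. Every TUSC3 array lay below every EV array, with a gap of 0.084. The difference was -0.20 with an interval of -0.36 to -0.04, and it did not pass after adjustment (limma, adjusted p = 0.740, range 0.329 to 0.856 over 12 alternatives). The leave-outs kept it between -0.22 and -0.17. The endothelial markers PECAM1, CDH5 and others averaged 4.54 to 4.77 in EV and 4.62 to 4.73 in TUSC3, with overlap, and their part in this value was not tested.

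HIF3A encodes an alpha subunit with isoforms that can restrain the other alpha subunits. It read 4.90, 4.94 and 4.95 in the EV arrays and 5.04, 4.72 and 4.62 in the TUSC3 arrays. TUSC3 replicate 1 was the highest of the 6 arrays and TUSC3 replicate 3 the lowest, so the groups overlapped. The difference was -0.14 (interval -0.41 to 0.13, limma, adjusted p = 0.856).

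As a reference for low signal, 354 olfactory receptor genes, a family mostly silent outside the nose, had a median EV level of 3.07 and a 95th percentile of 4.70. HIF3A, at 4.93, lay just above that percentile, with 14 of these genes at or above it. VHL had 3 of them at or above its level and each other member had 0. Probe sets differ in response, so this places a signal against background and does not give transcript amounts. The same reference had 25 genes at or above the EV level of TUSC3.

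ARNT encodes the constitutive partner of the alpha subunits and of the aryl hydrocarbon receptor. It read 9.05, 9.17 and 9.27 in the EV arrays and 9.24, 9.02 and 8.92 in the TUSC3 arrays. The groups overlapped, as TUSC3 replicate 1 was above EV replicates 1 and 2. The difference was -0.11 with an interval of -0.35 to 0.14 (limma, adjusted p = 0.872).

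HIF1AN, the asparaginyl hydroxylase also called FIH, read 9.03, 9.09 and 9.21 in the EV arrays and 9.06, 9.04 and 9.15 in the TUSC3 arrays. The groups overlapped throughout, and the difference of -0.03 had an interval of -0.21 to 0.15 (limma, adjusted p = 0.963). Without EV replicate 3 its sign turned, to 0.024.

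VHL, the substrate-recognition subunit of the ligase that marks hydroxylated HIF alpha for degradation, read 5.96, 6.16 and 6.23 in the EV arrays and 6.06, 6.35 and 6.27 in the TUSC3 arrays. The groups overlapped through replicate 1 of TUSC3. The difference was 0.11 with an interval of -0.15 to 0.36 (limma, adjusted p = 0.876). VHLL, a gene similar in sequence to VHL and also looked up after the members' values were seen, read 2.97 in EV and differed by -0.028.

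For 7 of the 8 genes, the exception being EGLN3, the 95% interval lay within a 1.5-fold change in either direction, as it did for 91.1% of all genes. The widest of these 7 was that of HIF3A, which reached 1.33-fold. These intervals bound changes in array signal.

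**Figure D3:**
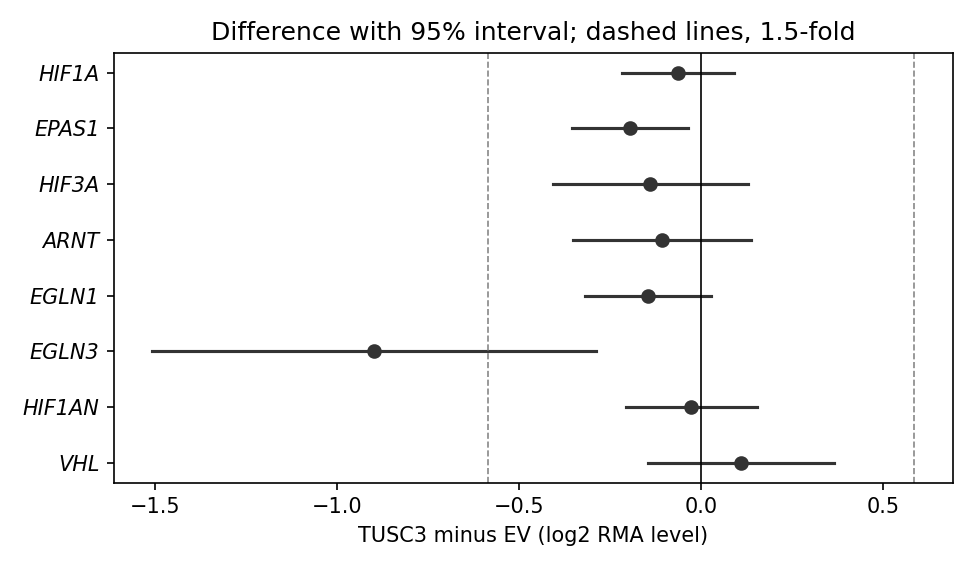
Difference between the TUSC3 and EV groups (horizontal axis, log2 RMA level, point) with its 95% interval from limma (line, n = 3 arrays per group) for the 8 genes, with dashed lines at 1.5-fold. The EGLN3 interval, -1.51 to -0.29, crosses the dashed line on the lower side, and the other 7 lie between the dashed lines.

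The EV arrays did not contribute equally to these values. EV replicate 1 was the lowest EV array for 7 of the 8 genes, HIF1A being the exception, and EV replicate 3 the highest for 6. Over all genes, EV replicate 1 was the lowest EV array for 34.7% and EV replicate 3 the highest for 33.0%. EV replicate 1 was the EV array nearest to the TUSC3 group for EGLN3, EPAS1 and EGLN1. Without EV replicate 1 the EPAS1 and EGLN1 differences were -0.22 and -0.18, and what this array shares with the TUSC3 arrays was not tested.

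**Figure D4:**
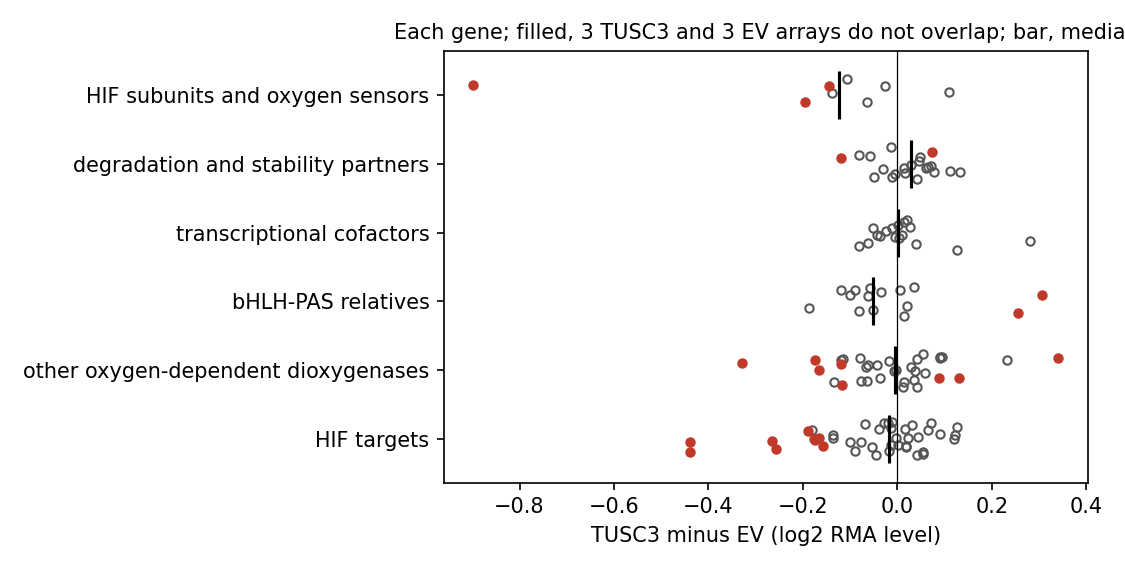
Difference between the TUSC3 and EV groups (horizontal axis, log2 RMA level) for each measured gene of the HIF subunits and oxygen sensors and of 5 lists of related genes, with filled points where the 3 TUSC3 and 3 EV arrays did not overlap and a bar at the list median. The medians of the 5 related lists lie between -0.052 and 0.029.

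Other genes of the pathway were taken by role from 5 lists with 123 measured genes in all, 6 of them in 2 lists. Of these, 0 passed the threshold in either direction (limma over all genes), and 7 were lower and 2 higher at an unadjusted p of 0.05, against 3.3% and 3.41% of all genes. The HIF target list held 6 of those 7. The median difference over all genes was 0.0013.

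Partners that degrade or stabilise HIF alpha were lower in 8 of 21 measured genes, with a median difference of 0.029. At unadjusted p, 0 were below 0.05 in either direction. OS9, an endoplasmic reticulum lectin also reported to bind HIF1A, differed by -0.12, P4HTM, a transmembrane prolyl hydroxylase, by 0.11, and NEDD8, the modifier that activates cullin ligases, by 0.13. SENP1, a SUMO protease, had the highest EV level of the list, 11.14, and differed by -0.01. Transcriptional cofactors were lower in 8 of 17, with a median of 0.00054. CITED4 and CITED2, which compete with HIF alpha for CREBBP and EP300, differed by 0.28 and 0.13, the coactivator NCOA2 by -0.08, and PKM, pyruvate kinase, by 0.01 from an EV level of 11.81.

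Relatives of the HIF subunits in the bHLH-PAS family were lower in 9 of 15, with a median of -0.052. ARNT2, the paralogue of ARNT best known from neurons, read 6.16, 6.21 and 5.98 in the EV arrays and 6.43, 6.37 and 6.47 in the TUSC3 arrays. Its arrays did not overlap, and the difference was 0.31 with an interval of 0.11 to 0.50, which did not pass after adjustment (limma, adjusted p = 0.731). AHRR, the repressor of the aryl hydrocarbon receptor, differed by 0.26 and the clock gene PER2 by -0.19. BMAL2, a circadian relative of ARNT, had an EV level of 10.54 and differed by -0.12.

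Other dioxygenases that use oxygen and 2-oxoglutarate or act as oxygen sensors were lower in 18 of 34, with a median of -0.0056. TET1, which oxidises methylcytosine, read 5.70, 5.80 and 5.92 in the EV arrays and 5.59, 5.38 and 5.47 in the TUSC3 arrays, a difference of -0.33 without overlap (limma, adjusted p = 0.731). JMJD4, a lysyl hydroxylase of the translation termination factor eRF1, differed by 0.34 and P4HA1, a collagen prolyl hydroxylase, by -0.18. PLOD3, a collagen lysyl hydroxylase, had the highest EV level of the list, 11.25, and differed by 0.06. TUSC3 and EV arrays were fully separated for 5 of the 34 genes on the lower side (14.7%) and 3 on the higher side (8.82%), against 6.08% and 6.17% of all genes.

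Genes that HIF induces were lower in 26 of 42, or 61.9%, where 49.6% of all genes were lower, and the median difference was -0.019. Without TUSC3 replicate 1 the median was -0.061 and without EV replicate 1 it was -0.055. For 9 of the 42 the TUSC3 arrays lay below the EV arrays, and for 0 above, against 6.08% and 6.17% of all genes. At an unadjusted p of 0.05 (limma), 6 of the 42 were lower and 0 higher, against 3.3% and 3.41% of all genes. The 16 targets with a higher mean in the TUSC3 group differed by at most 0.13. PFKFB4, a regulator of glycolysis, read 7.18, 7.48 and 7.36 in the EV arrays and 7.01, 6.82 and 6.87 in the TUSC3 arrays, a difference of -0.44. NDRG1, a stress-responsive gene, differed by -0.44 and HILPDA, a lipid droplet protein, by -0.19, both without overlap. SLC2A1, the glucose transporter GLUT1, had the highest EV level of the list, 13.09, and differed by -0.07. None of these 4 passed (limma, adjusted p = 0.731 for the first 3 and 0.872 for SLC2A1). The list was chosen with earlier results of these data known, so these genes are no independent support.

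The genes most like EGLN3 over the 6 arrays were sought by Pearson correlation among the 11869 genes with an EV level above the median, members left out. They were SPRY4-AS1 (r = 0.991), FSAF1 (0.990), LOC644277 (0.988), the protocadherin gene PCDH1 (0.985), the ubiquitin ligase gene MKRN1 (0.983) and TTLL11 (0.981), a gene of the tubulin polyglutamylase family. Their differences were small beside that of EGLN3, from -0.22 to -0.14. With 6 arrays in 2 groups, 114 genes had r of 0.9 or more, and the value reflects both the group difference and the order of the arrays within EV.

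Among 35 HIF targets in that ranking, HILPDA stood highest, at place 99 (r = 0.912), followed by PFKFB4 at place 149 (r = 0.888). Their median r was 0.52, where that of all ranked genes was 0.023. CITED2 stood near the other end (r = -0.873). This r includes the group difference on which EGLN3 was selected, so it adds nothing to that difference. With each array taken as its deviation from its group mean, r over these targets ran from 0.903 (HILPDA) to -0.773 (CITED2). Among the members, EPAS1 (r = 0.884) and EGLN1 (r = 0.858) had the highest r with EGLN3 and VHL (r = -0.038) the lowest. When each array was taken as its deviation from its group mean, HIF1AN was highest (r = 0.860), above EPAS1 (0.620), EGLN1 (0.617) and VHL (0.545), and HIF1A was lowest (-0.485), so the order rests on whether the group difference enters. These correlations share the same 6 arrays and are descriptions.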

How the data were processed

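Per the labels, total RNA of SW480 cells was labelled with biotin and hybridised to Affymetrix arrays. Per the submitters' processing notes, RMA made the deposited values, which are log2 levels per probe set. The sources used here give neither the RMA version nor the array model. The sorted values were identical on 5 arrays and differed by at most 0.0018 on TUSC3 replicate 1, where 22765 values were distinct, compared with 9648 on the others. With distributions this close, a shift of most genes in 1 direction cannot be seen.

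Groups came from the labels. Of 25088 probe sets, 23752 had 1 symbol, none shared, and were tested as deposited, without a filter, by two-sided moderated tests (limma 3.58.1, R 4.3.3) with Benjamini-Hochberg adjustment and a threshold of 0.05. No detection call was used. A simulation of this comparison over 23752 genes gave 50 genes a change at each of 1.5-, 2-, 3- and 4-fold. The test found 54%, 76%, 98% and 94% of them, in that order, and made 5 false calls. Many changed genes at once ease the Benjamini-Hochberg adjustment, whereas in the real arrays only TUSC3 passed. The simulated shares therefore do not give the chance of finding a change in a single member, which was not tested.

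The members and lists were chosen with earlier results of these data known. The 9 members were always named. Each related list gave its 3 genes with the smallest p and the 1 with the highest EV level, and EGLN3 the 6 genes most like it. Alternatives were renormalization, a median shift, a filter on dim probe sets, another variance prior, array weights, the replicate block and leaving out each array.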

Additional observations from a re-analysis of the deposited data

How the results depend on the processing

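The count of members past the threshold was 0 in each of 12 alternatives, with adjusted p of at least 0.329, and the TUSC3 difference stayed between 8.51 and 8.66. The trended and robust variance prior gave 2 genes over the whole table in place of 1, the added one SAA1; the cause was not tested. Without 1 array, the EGLN3 difference ran from -1.19 to -0.63, HIF1AN from -0.067 to 0.024, HIF3A from -0.26 to -0.052, ARNT from -0.20 to -0.039 and VHL from 0.030 to 0.19, and the medians from -0.061 to -0.020 for HIF targets, -0.065 to -0.011 for bHLH-PAS relatives and -0.014 to 0.018 for cofactors. The bHLH-PAS median was -0.023 without the dimmest 30% of probe sets, where fewer genes were tested. Same-numbered replicates did not deviate together (correlations -0.014, 0.043 and -0.011). With the replicate block the EGLN3 difference was -0.90, 1 gene passed and 0 members did. The comparison of EGLN3 with EGLN2 was not run.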
